A study of Mus musculus with 20 samples.

Results

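The CREB, CRTC and SIK genes are 9 of the 24419 genes counted in cultured mouse hippocampal neurons. They were chosen by symbol and by known function, with earlier results of these data known. They comprise the transcription factors Creb1, Crem and Atf1, the coactivators Crtc1, Crtc2 and Crtc3, and the salt-inducible kinases Sik1, Sik2 and Sik3. All 9 were in the count table, and 9 of 9 passed the low-count filter that kept 14411 genes. Messenger RNA was sequenced from dissociated hippocampal cultures of C57BL6 mice, prepared from tissue of 4 embryos pooled at embryonic day 18 and treated with 4 µM cytosine arabinoside, which removes dividing cells, on days 3 to 6. On culture day 10, 5 libraries were made for each of 4 groups. Control cultures received the stimulation buffer alone for 2 min. Glutamate cultures received 50 µM glutamate for 2 min, zinc cultures received 50 µM glutamate with 10 µM ZnCl2, and TPA cultures received 50 µM glutamate with 10 µM tris(2-pyridylmethyl)amine (TPA, a zinc chelator) after 1 min in TPA alone. All cultures then recovered for 90 min at 37 °C before lysis. The zinc and TPA groups thus both contained glutamate, and no group received zinc or TPA without it. The labels call the libraries biological replicates but name no separate litters, so the p-values measure the spread between these samples.

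CREB is a transcription factor held at cAMP response elements, and calcium and cAMP signals lead to its phosphorylation by several kinases. The CRTC proteins are coactivators that enter the nucleus once calcineurin has removed their phosphates, and there they bind CREB. Salt-inducible kinases phosphorylate the CRTCs and so keep them in the cytoplasm. Sik1 is itself a known CREB target in neurons and muscle, which closes a feedback loop, whereas Sik2 and Sik3 are regarded as mainly controlled by phosphorylation. Crem encodes activators and, from an internal promoter, the short repressor ICER, and gene-level values cannot separate these products. RNA levels say nothing about phosphorylation or location of the proteins.

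Promoter stretches are shown for the members whose window held a match to the CREB motif, since the set is defined by CREB and its regulators. RefSeq windows of the GRCm38.p6 build, from 250 bases before to 50 bases after a gene's start, were found for 6 of the 9 members, namely Sik2, Sik3, Creb1, Atf1, Crtc1 and Crtc3. Sik1, Crem and Crtc2 were not matched. Each window was searched on both strands for the full cAMP response element TGACGTCA and for its shorter core TGACG, which reads CGTCA on the other strand. Core sites are in capitals, all stretches run 5′ to 3′ on the gene's own strand, and positions count the start site as base 1.
Sik2, chr9:51009037-51009094, minus strand: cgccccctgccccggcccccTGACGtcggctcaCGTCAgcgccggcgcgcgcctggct
Sik3, chr9:46012667-46012728, plus strand: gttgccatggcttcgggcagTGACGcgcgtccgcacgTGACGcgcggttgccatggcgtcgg
Sik3, chr9:46012743-46012787, plus strand: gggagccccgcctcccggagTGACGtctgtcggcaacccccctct
Atf1, chr15:100227749-100227793, plus strand: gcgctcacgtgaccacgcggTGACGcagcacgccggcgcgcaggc
In Sik2 the core sites began at -1 and 13, in opposite orientation around the start. In Sik3 they began at -133, -116 and -57, all in the same orientation. Atf1 had 1, at -90. No window of the 6 held the full element, and those of Creb1, Crtc1 and Crtc3 held no core site either. For scale, the full element was in 1.79% of all 32851 windows and a core or full site in 20.8%. Among the windows of genes tested here these shares were 3.01% and 29.8%. A match is a run of letters and does not show that CREB binds there.

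The cultures had the markers of neurons that their label names. The summed level of 6 general neuron markers was between 6058 and 7242 in the 20 libraries, in CPM (counts relative to the normalized size of the library), against 162.3 to 237.4 for 6 astrocyte markers, 22.7 to 30.1 for 6 oligodendrocyte lineage markers and 2.54 to 4.57 for 6 microglia markers. The 3 blood markers were at 0 in every library. The libraries held 28692470 to 40934630 counts assigned to genes. As a check of the stimulus, Fos, Fosb, Npas4 and Arc, which neurons induce on stimulation, were compared after glutamate and in control. Fos was 1.12 log2 units higher after glutamate (SE 0.17, edgeR adjusted p = 0.00659). Fosb (1.22, edgeR adjusted p = 6.92e-06) and Npas4 (0.84, edgeR adjusted p = 0.0346) passed too. Arc, at 0.34 (SE 0.12, edgeR adjusted p = 0.939), did not. Of the 20 libraries, glutamate 5, glutamate 4 and zinc 5 lay farthest from their own group means. Calls of members and of pathway lists that change without them are given beside the results. These libraries were picked by their distance from the group means over all genes. Leaving them out narrows the spread within groups by construction, so the p-values of that fit are descriptions. In cultures of mixed cells, a lower value can come from fewer cells of a type or from less RNA per cell, and these cannot be told apart.

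**Figure D1:**
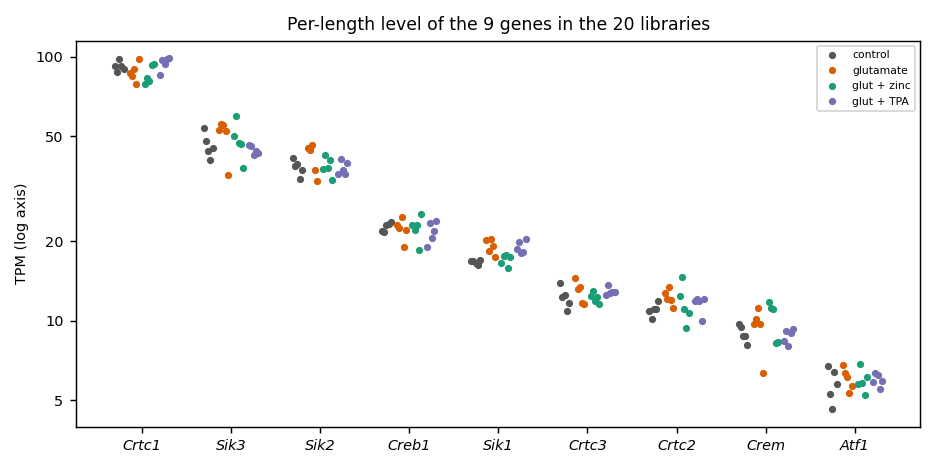
Deposited TPM, a level scaled for transcript length and library total (log axis), of the 9 genes, ordered by their median; each point is 1 of 20 libraries, coloured by group. Crtc1 stands above every other member in all libraries, and Atf1 is lowest.

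Crtc1, the coactivator known as the main CRTC of neurons, was the most abundant member per transcript length. Its deposited TPM ranged from 79.0 to 98.9 over the 20 libraries, with a median of 91.3, at the 81.8th percentile of the tested genes. The median TPM was 46.5 for Sik3 and 38.2 for Sik2. It was 22.8 for Creb1, 17.7 for Sik1, 12.5 for Crtc3, 11.8 for Crtc2, 9.22 for Crem and 5.89 for Atf1. The range of Crtc1 did not overlap that of the next gene, nor did that of Sik2 overlap Creb1 or that of Sik1 overlap Crtc3. The library ranges of Sik3 and Sik2 overlapped, although Sik3 was the higher in 20 of 20 libraries. The ranges also overlapped between Creb1 and Sik1, where Creb1 was higher in 19 libraries, and between Crtc3 and Crtc2, where Crtc3 was higher in 15. Crtc2 overlapped Crem but was higher in 19 libraries, and Crem overlapped Atf1 but was higher in 20. The order given here is that of the medians. RPKM values gave the same order.

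Within each family, 1 gene supplied the largest part of the summed TPM. Crtc1 made up a median of 79.2% of the CRTC sum (range 75.1% to 81.2%), with 11.1% from Crtc3 and 9.92% from Crtc2. Creb1 made up 59.0% of the factor sum (range 55.0% to 64.8%), Crem 24.9% and Atf1 15.9%. The kinases were more even. Sik3 made up 45.2%, Sik2 37.7% and Sik1, the stimulus-regulated kinase, 17.2%, with a range for Sik1 of 14.7% to 20.1%.

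**Figure D2:**
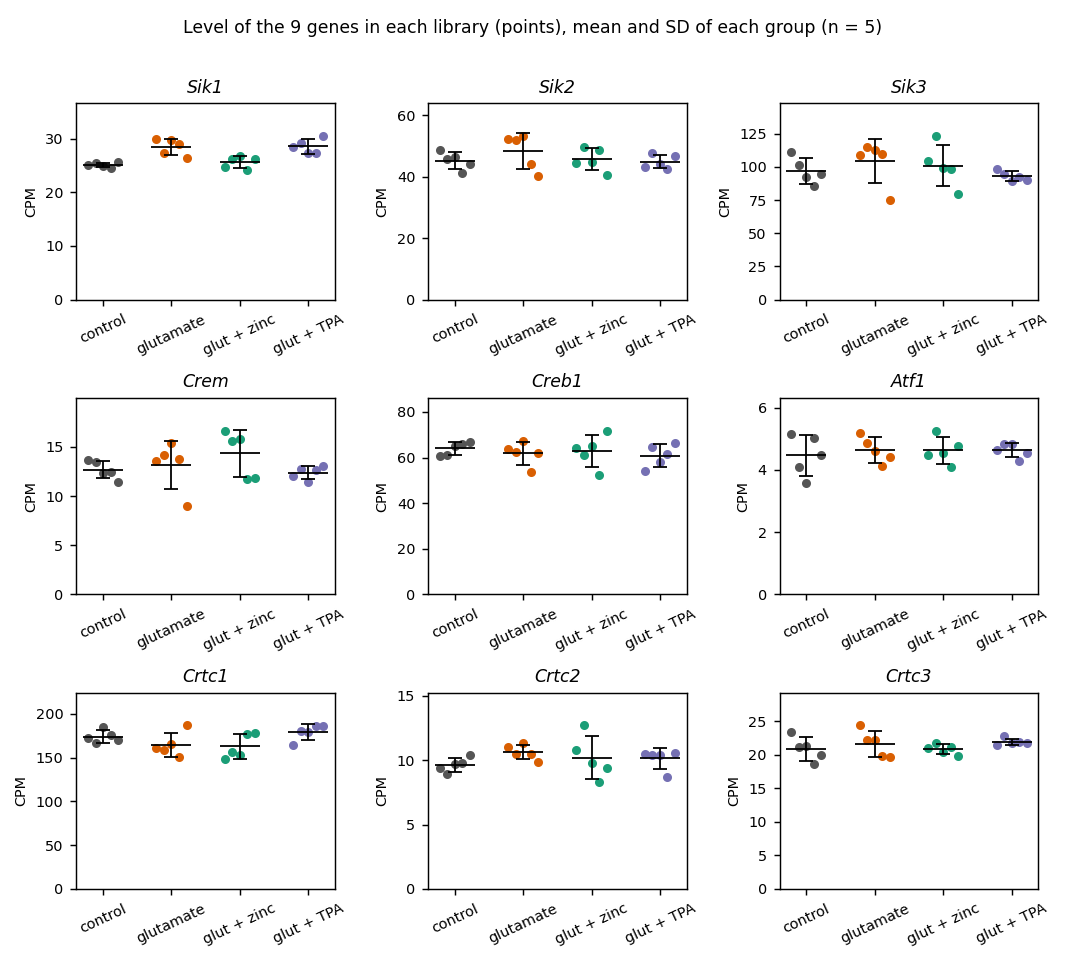
CPM of each gene by group, with axes from 0; points are libraries in replicate order within a group and bars are the mean and SD of 5 libraries. For Sik1 the glutamate and TPA libraries lie above all control libraries, while for the other 8 genes the groups overlap.

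Sik1 was the member with the clearest separation between groups. In control libraries 1 to 5 its level was 25.0, 25.5, 24.9, 24.6 and 25.6 CPM. In glutamate libraries it was 29.9, 27.3, 29.7, 29.0 and 26.4 CPM. All 5 glutamate libraries lay above all 5 controls, with means of 28.4 ± 1.55 and 25.1 ± 0.410 CPM (SD, n = 5). Zinc libraries gave 24.8, 26.1, 26.8, 24.1 and 26.3 CPM, and their mean of 25.6 ± 1.14 was close to the control mean. TPA libraries gave 28.5, 29.2, 27.3, 27.3 and 30.5 CPM, with a mean of 28.5 ± 1.35. The zinc values overlapped those of control and, by 1 library, those of glutamate, and they did not overlap those of TPA.

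These differences in Sik1 were small and did not pass the adjustment over 14411 genes in edgeR's quasi-likelihood test. Glutamate exceeded control by 0.18 log2 units (SE 0.045), or 13.3% with a 95% interval of 6.25% to 20.8%, at an adjusted p of 0.454 and rank 17 of all genes by unadjusted p. TPA exceeded control by 0.18 (SE 0.045, adjusted p = 0.539 in edgeR, rank 12). Zinc was below glutamate by -0.15 (SE 0.045, edgeR adjusted p = 0.606), and 4 of 5 zinc libraries lay below all glutamate libraries. TPA exceeded zinc by 0.16 (SE 0.045, edgeR adjusted p = 0.0899). The other contrasts of Sik1 were near 0, with TPA minus glutamate at 0.005 (95% interval -0.09 to 0.10) and zinc minus control at 0.03 (-0.06 to 0.12). The comparisons share their control, glutamate, zinc or TPA libraries and are not independent of each other.

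The contrast of TPA with zinc for Sik1 lay near the threshold. In the authors' deposited table, computed with DESeq2, zinc minus TPA was -0.13 with an adjusted p of 0.0405, among 456 genes past the threshold there. DESeq2 run here on the same counts gave an adjusted p of 0.0381 for TPA minus zinc. Over the alternatives tried, the adjusted p of this contrast ran from 0.0299, without the 3 farthest libraries, where 8.22% of all genes passed, to 0.261. The size of the difference itself was 0.17 without those libraries.

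None of the 9 members passed an adjusted p of 0.05 in any of the 6 comparisons with edgeR. At an unadjusted p under 0.05, Sik1 passed in 4 comparisons (glutamate and TPA against control, zinc against glutamate, and TPA against zinc) and Crtc1 in 2 (TPA against glutamate and against zinc). The share of all tested genes at that unadjusted threshold was 5.04% for glutamate against control and 3.17% for TPA against control. It was 6.13% for zinc against glutamate, 7.3% for TPA against glutamate and 16.2% for TPA against zinc. In zinc against control, where no member passed that unadjusted threshold, the share was 11.2%. Few genes of any kind passed the adjusted threshold. The shares of all tested genes were 0.0416% for glutamate against control, 0% for zinc against glutamate, 0% for TPA against glutamate, 0.5% for TPA against zinc, 0.0555% for zinc against control and 0.0694% for TPA against control. In the comparisons with 0 calls, 883 genes for zinc and 1052 genes for TPA had an unadjusted p under 0.05, and DESeq2 called 2 and 1. Groups without any overlap were seen for Sik1 alone among the members, in 3 comparisons. The share of all tested genes whose groups did not overlap was 0.985% for glutamate against control, 1.33% for TPA against control and 3.13% for TPA against zinc. In the comparisons where no member was free of overlap, that share was 0.701% for zinc against glutamate, 1.03% for TPA against glutamate and 2.66% for zinc against control.

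**Figure D3:**
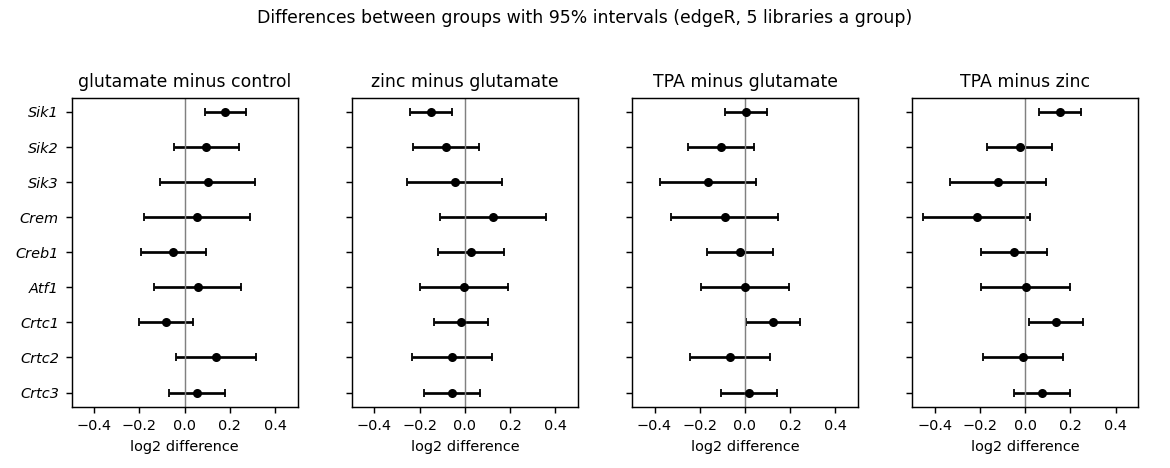
Log2 differences of the 9 genes in 4 comparisons with 95% intervals from edgeR, 5 libraries a group; the line marks 0. Intervals of Sik1 leave out 0 in 3 panels, and those of Crtc1 in the 2 panels on the right.

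Sik2, a kinase abundant in neurons, ranged from 41.3 to 48.6 CPM in control and from 40.7 to 49.6 CPM in zinc libraries. Its glutamate libraries gave 52.4, 51.9, 53.3, 44.2 and 40.2 CPM, the last of these the lowest of all 20. TPA libraries ranged from 42.6 to 47.7 CPM. Its glutamate values thus spread on both sides of the other groups. Glutamate minus control was 0.10 (95% interval -0.05 to 0.24, edgeR adjusted p = 0.939). Exons of Sik2 (chromosome 9, bases 50892801 to 51009073, minus strand) share 589 bases, 16.6% of the length counted for Sik2, with Ppp2r1b on the opposite strand. The use of strand in counting is not given in the labels or notes, so reads of these 2 genes may be mixed there and the values of Sik2 are uncertain to that extent. Ppp2r1b, a scaffold subunit of protein phosphatase 2A, differed between glutamate and control by 0.02 (SE 0.065), and its level correlated with that of Sik2 at r = 0.60 over the 20 libraries.

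Sik3, a kinase known for its part in sleep need and metabolism, showed the widest spread in CPM among the SIKs. Its glutamate libraries gave 108.8, 115.1, 112.5, 109.7 and 75.2 CPM. Its zinc libraries gave 104.4, 123.1, 98.7, 98.6 and 79.8 CPM. In both groups library 5 was the low one. Control ranged from 85.9 to 111.4 CPM, whereas TPA lay within 89.6 to 98.5 CPM. The coefficient of variation was 15.8% in glutamate, 15.4% in zinc, 9.99% in control and 3.89% in TPA. TPA minus glutamate was -0.16 (95% interval -0.38 to 0.05, edgeR adjusted p = 0.742).

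Without the 3 farthest libraries, an alternative chosen after seeing the data, the difference of TPA from glutamate passed the threshold for both of these kinases. It was -0.23 for Sik2 (SE 0.052, edgeR adjusted p = 0.0224) and -0.27 for Sik3 (SE 0.071, edgeR adjusted p = 0.0380). These values rest on 3 glutamate libraries, and 4.12% of all genes tested passed in the same fit. The glutamate libraries left out, 4 and 5, held the lowest Sik2 values of their group, and glutamate 5 the lowest Sik3 value. Because libraries were picked by distance from their group means, the spread within groups shrank by construction. Over all alternatives the adjusted p ran from 0.0224 to 0.981 for Sik2 and from 0.0380 to 0.981 for Sik3.

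Crem, the factor gene that includes ICER, had 362 to 630 counts per library. Control libraries gave 13.7, 13.5, 12.4, 12.5 and 11.5 CPM, and glutamate libraries 13.5, 14.2, 15.4, 13.8 and 9.03 CPM. Zinc libraries gave 16.7, 15.7, 15.8, 11.8 and 11.8 CPM, while TPA libraries gave 12.0, 12.7, 11.4, 12.7 and 13.1 CPM. The zinc group split into 3 libraries above every other value of Crem and 2 libraries among the lower ones. TPA minus zinc was -0.21 (SE 0.11, edgeR adjusted p = 0.360), zinc minus control was 0.18 (SE 0.11, adjusted p = 0.573), and glutamate minus control was 0.05 (SE 0.11, adjusted p = 0.987). Without the 3 farthest libraries TPA minus zinc was -0.27 (edgeR adjusted p = 0.0410, range over all alternatives 0.0410 to 0.620), in a fit where 8.22% of all genes passed.

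Creb1 (chromosome 1, bases 64532804 to 64604548), the founding member of the family, had group means of 64.0 ± 2.78 CPM in control, 61.8 ± 5.01 in glutamate, 62.9 ± 7.00 in zinc and 60.9 ± 5.02 in TPA (SD, n = 5). Its largest difference was TPA minus control at -0.07 (SE 0.070, edgeR adjusted p = 1.00), and the 4 groups overlapped. Its lowest libraries were zinc 4 at 52.5, glutamate 4 at 53.7 and TPA 1 at 54.0 CPM, and its highest was zinc 5 at 71.8. These 3 low libraries were also the 3 with the highest level of GC-rich relative to GC-poor genes, at 0.15, 0.14 and 0.13 log2 units, and zinc 5 was the lowest on that measure at -0.18. With 39.6% GC, the Creb1 transcript is at the 4.82nd percentile of tested genes. Its log2 CPM correlated with the library measure at r = -0.84 over 20 libraries. The part of base composition in the spread of Creb1 was not tested beyond a fit with a GC offset, in which zinc minus glutamate went from 0.03 to -0.02.

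Atf1, which binds the same element as CREB and dimerises with it, was the lowest member. Its group means were 4.47 ± 0.648 CPM in control, 4.64 ± 0.414 in glutamate, 4.62 ± 0.431 in zinc and 4.63 ± 0.230 in TPA (SD, n = 5). The means of the 3 groups that received glutamate were nearly equal, and each exceeded control by 0.05 to 0.06 log2 units with SEs of 0.09. The 95% interval of glutamate minus control was -0.14 to 0.25, which includes both 0 and a difference of the size seen for Sik1.

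Crtc1 (chromosome 8, bases 70382358 to 70439573, minus strand) differed most between the TPA group and the other glutamate-treated groups. Glutamate libraries gave 161.2, 158.7, 165.8, 150.2 and 186.9 CPM, and zinc libraries 148.9, 155.9, 153.4, 177.4 and 178.0 CPM. TPA libraries gave 163.9, 180.4, 179.0, 186.1 and 185.9 CPM. Thus 4 of 5 TPA libraries lay above all zinc libraries, and glutamate 5 was above every TPA library. TPA minus zinc was 0.14 (SE 0.058, edgeR adjusted p = 0.233), or 10.0% with an interval of 1.29% to 19.5%, and TPA minus glutamate was 0.12 (SE 0.058, adjusted p = 0.679). Control libraries ranged from 166.6 to 185.2 CPM, and 4 of 5 glutamate libraries lay below all of them, with a difference of -0.08 (SE 0.057, edgeR adjusted p = 0.939). Without the 3 farthest libraries TPA minus zinc was 0.17 (edgeR adjusted p = 0.0303, range over all alternatives 0.0303 to 0.464), again with 8.22% of all genes past the threshold.

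Crtc2, the CRTC known from liver gluconeogenesis, gave 9.39, 8.93, 9.74, 9.82 and 10.4 CPM in control and 11.0, 10.5, 11.4, 10.5 and 9.86 CPM in glutamate libraries. In 4 of 5 cases the glutamate library lay above all controls, with a difference of 0.14 (SE 0.085, edgeR adjusted p = 0.939). Its zinc libraries spread from 8.32 to 12.7 CPM. In TPA, 4 libraries lay between 10.4 and 10.6 CPM and 1 at 8.72. Crtc3 had group means between 20.8 and 21.9 CPM, and its values in TPA were the tightest of any member in any group apart from control Sik1, with a coefficient of variation of 2.15% against 1.63%. Its largest difference was TPA minus zinc at 0.07 (SE 0.060, edgeR adjusted p = 0.575).

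**Figure D4:**
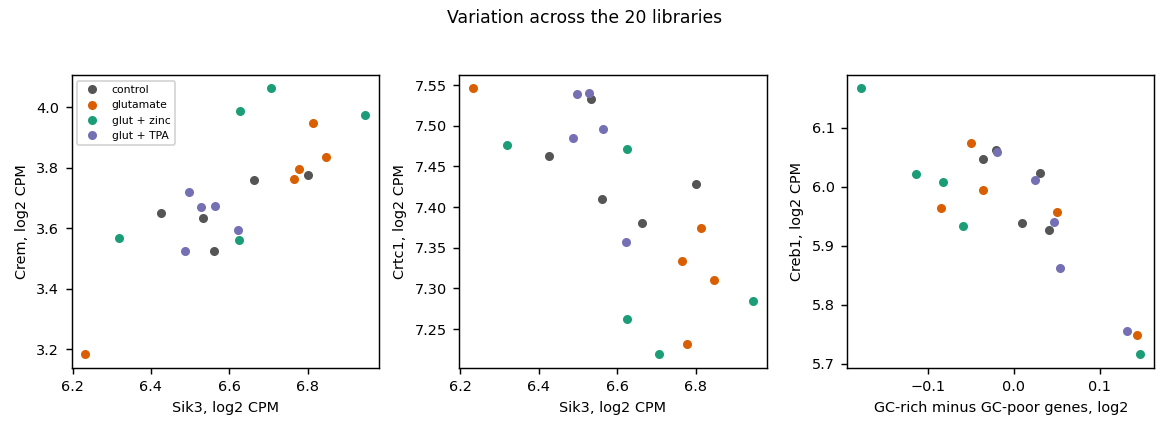
Log2 CPM of Crem (left) and Crtc1 (middle) against Sik3, and of Creb1 against the difference in log2 level between GC-rich and GC-poor genes (right), 1 point a library, coloured by group. Crem is higher and Crtc1 lower where Sik3 is higher, and Creb1 is lower where GC-rich genes are higher.

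Members varied together across libraries, within groups as well as over all 20 libraries. Over the 20 libraries, log2 CPM of Sik3 correlated with Sik2 at r = 0.78, with Crem at 0.77 and with Crtc1 at -0.71. Crem and Crtc1 correlated at -0.73, and Sik2 with Crtc3 at 0.75. With each group's mean removed, these were 0.78, 0.80, -0.70, -0.72 and 0.83. All points share the library's depth, its cell makeup and its base composition, and the values are descriptions. Sik3, Crem and Crtc1 followed the first principal component of all genes closely, at r = -0.93, -0.83 and 0.89, and the part of that shared variation in their group differences was not tested.

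The genes most like each member in these libraries differed between members. For Sik3 they were the clock gene Per1 (r = 0.96), Spred3 (0.96) and Adamts1 (0.95), and for Crem they were Lhfpl3 (0.93), Fam46a (0.89) and Slc7a11 (0.89). For Crtc1 they were Arhgap33 (0.95), Slc12a5, the neuronal chloride exporter (0.95), and Adgrb2 (0.95). Sik2 was closest to Akap13 (0.92), Slc6a17 (0.91) and the AP-1 gene Fosl2 (0.89). Creb1 was closest to the long noncoding RNA Tug1 (0.95), Slc35a5 (0.93) and Slc5a3 (0.93). Sik1 had weaker partners, Mex3b (0.82), Rbm33 (0.81) and Klf4 (0.78), and for Klf4 the correlation without group means was 0.18. Those of Crtc3 were Vangl2 (0.89), Micall1 (0.85) and Arhgap23 (0.85), those of Crtc2 were Chuk (0.81), Cdc14b (0.80) and Zfp395 (0.78), and those of Atf1 were Snap23 (0.72), Gprasp2 (0.66) and Pyurf (0.64). Each correlation is over 20 libraries and was picked as the highest among 11894 genes.

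**Figure D5:**
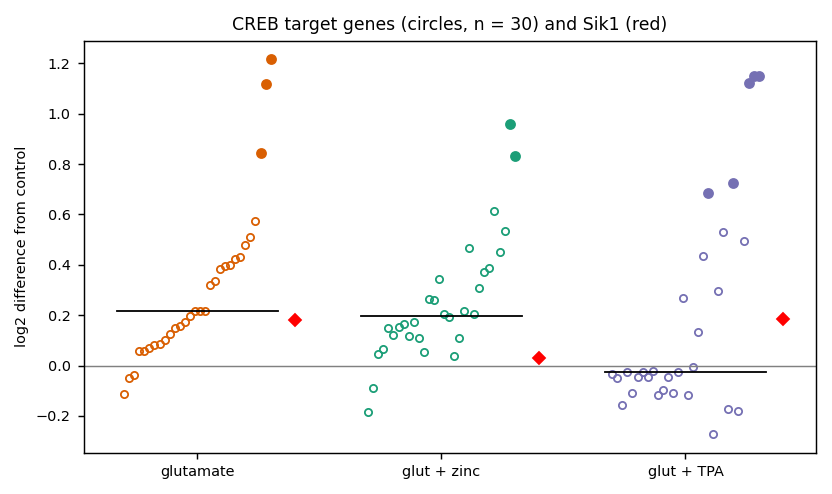
Log2 difference from control of 30 known CREB target genes (circles, in the same order in each group, filled where the edgeR adjusted p is under 0.05) and of Sik1 (red diamonds); lines are medians. Sik1 is near the target median after glutamate, below it with zinc, and above it with TPA.

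The other known CREB target genes gave a setting for Sik1. Their list was drawn up with earlier results of these data known, so the counts below are descriptions. After glutamate, 3 of 30 tested targets passed the test against control, all higher, and 27 of 30 differences were positive, with a median of 0.22 against -0.002 for all genes. The 3 were the AP-1 genes Fosb (1.22, SE 0.12) and Fos (1.12, SE 0.17) and the neuronal factor Npas4 (0.84, SE 0.15), with edgeR adjusted p of 6.92e-06, 0.00659 and 0.0346. With zinc, Fosb (0.83) and Fos (0.96) passed against control, 28 of 30 differences were positive and the median was 0.20. With TPA, 5 passed against control, namely Fosb (1.15), Fos (1.15), Npas4 (1.12), Junb (0.73) and Egr1 (0.69), yet only 11 of 30 differences were positive and the median was -0.03. Of all tested genes, 0.0416% passed after glutamate, 0.0555% with zinc and 0.0694% with TPA. Their differences from control were positive in 48.9%, 50.7% and 49.3%. Sik1 differed from control by 0.18, 0.03 and 0.18 in these 3 comparisons, which share the control libraries. Fosb held in all 22 alternatives of each comparison. Npas4 after glutamate held in 11 of 22 (adjusted p 0.00344 to 0.156), and Fos with zinc in 11 of 22 (0.000123 to 0.145), and both were lost when any 1 control library was left out. Npas4 was also lost without glutamate 1, 3 or 4, and Fos without zinc 1, 2 or 3. Fos after glutamate was lost only under edgeR's robust option, added after seeing the data, at an adjusted p of 0.0502, and Junb with TPA only without control 2, at 0.0503. After glutamate 6 targets passed without the 3 farthest libraries, with Nr4a1, Pcsk1 and Ppargc1a added, and 11 with zinc, with Npas4, Nr4a1, Nr4a2, Junb, Bdnf, Scg2, Atf3, Pcsk1 and Rgs2 added, all higher than control. In these fits 0.818% and 1.88% of all genes passed.

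Between the glutamate-treated groups, 1 target passed, Egr1, which was 0.47 higher in TPA than in zinc (SE 0.11, edgeR adjusted p = 0.0464). A further list held 13 tested genes of SIK substrates, MEF2 factors and 14-3-3 proteins. In it, Hdac7, a class IIa histone deacetylase that SIKs phosphorylate, was 0.31 higher in TPA than in zinc (SE 0.065, edgeR adjusted p = 0.0375). These calls were not stable, since Egr1 held in 9 of 22 alternatives (adjusted p 0.00350 to 0.184) and Hdac7 in 10 of 22 (0.00288 to 0.138). Both were lost without zinc 1, 2 or 3 and without TPA 2, 3, 4 or 5, each left out alone, and Egr1 also without TPA 1. Other settings added calls in TPA against zinc. DESeq2 called Npas4 as higher and Per2 as lower besides Egr1, where 4.14% of the genes with an adjusted p passed. Without zinc 4, Npas4 was higher and Bdnf lower, and without zinc 5, Scg2, Atf3 and Bdnf were lower. The shares of all genes called without zinc 4 or zinc 5 are not given here. In the fit without the 3 farthest libraries 15 targets passed, 4 higher in TPA (Egr1, Npas4, Junb and Arc) and 11 lower, among them Scg2, Bdnf, Vgf and Atf3, while 8.22% of all genes passed. In TPA against glutamate, 22 of 30 targets had negative differences, with a median of -0.12, and 0 passed. There, 13 targets passed without the 3 farthest libraries, while 4.12% of all genes passed. Of these targets 11 were lower in TPA, among them Per1, Per2, Bdnf, Scg2, Nr4a2 and Vgf, and 2 were higher, Egr1 and Junb. Hdac9, a further SIK substrate, was also lower in that fit, in TPA against glutamate and against zinc.

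The remaining lists of the pathway had 0 genes past the threshold in all 6 comparisons in edgeR with all 20 libraries. They held 12 AMPK-related kinases, 12 genes of CREB coactivators and protein kinase A and 16 genes of a kinase list. That list held kinases acting on CREB or SIK, kinases upstream of these, and the partner genes Strada, Stradb and Cab39. The rest were 11 calcineurin and phosphatase genes and 13 further CREB and ATF genes that were tested. In the order named, the list medians after glutamate were 0.004, -0.01, -0.05, -0.03 and 0.12 relative to control. In TPA against zinc, the smallest adjusted p among them belonged to Camkk2, a kinase upstream of calmodulin-dependent kinases, which differed by 0.33 (SE 0.096, edgeR adjusted p = 0.0925). The AMPK-related kinase Brsk2 differed by 0.11 (SE 0.036, adjusted p = 0.124). After glutamate, the calcineurin subunit gene Ppp3cc differed from control by 0.13 (SE 0.044, edgeR adjusted p = 0.855). DESeq2 called Camkk2 and Brsk2 in TPA against zinc, both higher, where 4.14% of the genes with an adjusted p passed. Camkk2 was also called there without zinc 4 (with Camk2b, Mark2 and Mark4 higher and Prkar1a lower) and without zinc 5. The shares of all genes called in those fits are not given here. In the fit without the 3 farthest libraries, Camkk2, Camk2b, Brsk2 and Mark2 passed as higher, and Atf4, Atf6 and Creb3l1 as lower, in TPA than in zinc. In the same fit Camk2b and Pkig passed as higher, and Akap5, Crebbp, Rcan2, Atf6, Creb3l2 and Creb5 as lower, in TPA than in glutamate. Against control, that fit called Creb3l2 as higher after glutamate, and with zinc Atf4 as higher and Ep300 and Camkk2 as lower. Of all genes, 8.22% passed in that fit in TPA against zinc and 4.12% in TPA against glutamate. Against control these shares were 0.818% after glutamate and 1.88% with zinc. The 16 genes of the kinase list were lower in 13 cases after glutamate and in 15 with zinc. They were higher in 14 cases in TPA against glutamate, and the 3 medians were -0.05, -0.06 and 0.06. In TPA against zinc 15 of 16 were higher, with a median of 0.06, and in TPA against control 7 were higher and 9 lower. Among all tested genes, differences from control were positive in 48.9% after glutamate, 50.7% with zinc and 49.3% with TPA. In TPA against glutamate that share was 51.3%, and in TPA against zinc 49.7%. These comparisons share the control, glutamate, zinc or TPA libraries, so their signs are not independent of each other, and no list-wide test was run.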

How the data were processed

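Members and gene lists were chosen with earlier results of these data known. The submitters' processing notes name HISAT2 2.1.0, featureCounts and SAMtools 1.3.1 for the mm10 build, with Trimmomatic 0.36, and DESeq2 1.14.1 in R 3.3.0. Strand use in counting is not stated in them. Libraries were stranded and polyadenylated, per the labels. The deposited count table holds raw counts per gene, with gene length beside them, and the deposited TPM values were used for levels between genes. The authors' deposited comparison tables hold a mean signal, a log2 fold change, a Wald score and p-values, and were used only for Sik1. CPM, TMM factors and quasi-likelihood tests were computed from the counts with edgeR 4.0.16 in R 4.3.3, all 20 libraries in 1 model of 4 group means, after edgeR's default filter, with Benjamini-Hochberg adjustment over 14411 genes. CPM were scaled by TMM factors, with a prior count of 2 for log2 CPM. Alternatives used DESeq2 1.42.0 and limma 3.58.1. Intervals are 95% and two-sided. No 2 libraries held identical counts. The fit was tested on simulated data. Beside the 9 members, the text names list genes past the threshold (where none passed, up to 2 of the smallest p), and for each member the 3 genes of highest correlation among those averaging 1 CPM or more that carry an established symbol. Promoter windows are RefSeq's, and GC content and exon overlap come from GENCODE M21. Atf1, the member with the fewest counts, had 126 to 206 in each library. List genes Pck1, G6pc, Creb3l3 and Creb3l4 did not pass the filter.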

Additional observations from a re-analysis of the deposited data

Results flagged for a closer look

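In 3 of 36 groups of 5 libraries of the members, 1 library stood apart from the other 4 beyond Dixon's 95% limit, and chance alone gives about 1 in 20. Sik3 in glutamate 5 was at 75.2 CPM, below the next library at 108.8 CPM. That library is 1 of the 3 that lay farthest from their group means over all genes. Crtc2 in TPA 4 was at 8.72 CPM, below the next at 10.4 CPM. Crtc3 in TPA 2 was at 22.8 CPM, above the next at 21.9 CPM.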

How the results depend on the processing

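The count of members called stayed at 0 in every comparison under the other normalizations, filters, limma-voom, the block and the leaving out of single libraries, whereas DESeq2 called 1 member, Sik1, in TPA against zinc. Without the 3 farthest libraries, added after seeing the data as were the GC offset and edgeR's robust option, 2 members were called in TPA against glutamate and 3 in TPA against zinc. Those libraries were picked by distance from their group means, which narrows the spread within groups by construction. Of 1188 values from 54 member differences and their alternatives, 1108 kept their direction and 80 did not. The differences that turned were at most 0.08 log2 units in size in the main fit, the largest being Crtc2 zinc minus control. Those that turned are given here as log2 values from the alternatives, and the cause was not tested. With library size alone they were Sik1 TPA minus glutamate -0.0090, Atf1 TPA minus zinc -0.0069, Crtc3 zinc minus control 0.0080. With limma-voom they were Atf1 TPA minus glutamate 0.0056, Crtc2 TPA minus zinc 0.0018, Crtc3 zinc minus control 0.0011. With a minimum mean of 1 CPM they were Atf1 zinc minus glutamate 0.0045, Atf1 TPA minus zinc -0.0067, Crtc3 zinc minus control 0.0057. With the replicate block it was Atf1 TPA minus glutamate 0.0015. Without the 3 farthest libraries they were Creb1 glutamate minus control 0.010, Creb1 zinc minus glutamate -0.085, Sik1 TPA minus glutamate -0.020, Crtc3 TPA minus glutamate -0.065, Creb1 TPA minus zinc 0.0027, Crtc3 zinc minus control 0.013. With a GC offset they were Creb1 zinc minus glutamate -0.023, Crtc1 zinc minus glutamate 0.0051, Sik1 TPA minus glutamate -0.0064, Atf1 TPA minus glutamate 0.017, Crtc3 TPA minus glutamate -0.0056, Creb1 TPA minus zinc 0.018, Crtc3 zinc minus control 0.021. With a GC offset and the replicate block they were Creb1 zinc minus glutamate -0.023, Crtc1 zinc minus glutamate 0.0043, Sik1 TPA minus glutamate -0.0079, Atf1 TPA minus glutamate 0.019, Crtc3 TPA minus glutamate -0.0023, Creb1 TPA minus zinc 0.018, Crtc3 zinc minus control 0.023. Leaving out 1 library at a time turned the sign in these ranges: Atf1 glutamate minus control -0.013 to 0.12, Atf1 zinc minus control -0.017 to 0.11, Atf1 zinc minus glutamate -0.061 to 0.035, Atf1 TPA minus control -0.014 to 0.11, Atf1 TPA minus glutamate -0.042 to 0.040, Atf1 TPA minus zinc -0.038 to 0.058, Creb1 zinc minus control -0.075 to 0.035, Creb1 zinc minus glutamate -0.025 to 0.082, Creb1 TPA minus glutamate -0.071 to 0.018, Creb1 TPA minus zinc -0.11 to 0.0030, Crem glutamate minus control -0.0038 to 0.17, Crtc1 zinc minus glutamate -0.051 to 0.029, Crtc2 zinc minus control -0.013 to 0.15, Crtc2 zinc minus glutamate -0.15 to 0.0065, Crtc2 TPA minus zinc -0.075 to 0.086, Crtc3 zinc minus control -0.042 to 0.040, Crtc3 TPA minus glutamate -0.017 to 0.061, Sik1 TPA minus glutamate -0.023 to 0.021, Sik2 zinc minus control -0.021 to 0.052, Sik2 TPA minus control -0.041 to 0.016, Sik2 TPA minus zinc -0.063 to 0.011, Sik3 zinc minus control -0.027 to 0.13, Sik3 zinc minus glutamate -0.15 to 0.028.

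The labels number the libraries 1 to 5 in each group. Of 30 same-numbered pairs, 11 had deviations correlated above 0.1 (range -0.07 to 0.50), and 9 of 20 libraries correlated best with their own number. The mean correlation was 0.08, 0.13, -0.006, -0.006 and 0.20 for numbers 1 to 5. Between different numbers it was -0.02. These values do not settle whether the numbers pair the samples in part, and the main model used no block. With the replicate block, 0 members were called, Npas4 (higher), Scg2, Atf3 (lower), Camk2b and Camkk2 (higher) were added among list genes in TPA against zinc, and the calls over all genes went from 72 to 397 in TPA against zinc and from 8 to 38 in zinc against control. DESeq2 called 481 and 65 genes there and 14 after glutamate against 6. Without the 3 farthest libraries the calls over all genes were 1196 in TPA against zinc, 600 in TPA against glutamate, 274 in zinc against control and 119 after glutamate. With a GC offset 13 were called in TPA against zinc, with the GC offset and the replicate block 271, and with the 2 groups alone 6. GC content was known for 96.3% of tested genes.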
